A study of Mus musculus with 16 samples.

Results

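Dividing cells made up 514 of the 94436 kidney cell barcodes kept from 16 mouse libraries, or 0.544%. A barcode was counted as dividing when its 6 mitotic genes Mki67, Top2a, Birc5, Cdk1, Ccnb1 and Ube2c held at least 4 unique molecular identifiers (UMIs, 1 per captured RNA molecule) together and at least 3 of the 6 were detected. The kept barcodes, out of 116439 deposited, had between 200 and 7000 genes detected, and mitochondrial genes took no more than 50% of their UMIs. Each library came from 1 mouse, and its cells were loaded on a 10x Genomics droplet instrument after a density spin in Percoll, from which the layer rich in proximal tubule (PT) pieces was thrown away so that glomeruli made up more of the sample. DN mice were BTBR ob/ob, which lack functional leptin and become obese and diabetic; control mice were BTBR +/+. Females and males of both genotypes were sampled at 6 and 12 weeks of age, with 2 mice in each of the 8 groups, and every mouse also carried the ROSA mT/mG colour reporter with a Cre transgene driven in podocytes.

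A cell that divides copies its DNA in S phase, checks and condenses the copies in G2, and separates them in mitosis (M). Cyclins switch on cyclin-dependent kinases for each step, inhibitors of these kinases hold the cycle back, and a set of spindle, kinetochore and cytokinesis genes is transcribed only late in the cycle. The adult kidney renews slowly. Tubule cells can re-enter the cycle after injury, whereas podocytes, the filtering cells of the glomerulus, are known for rarely doing so.

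Libraries held 3853 to 10879 barcodes and 10510855 to 125551519 UMIs. The median depth of kept barcodes ran from 634 UMIs in control male 6 weeks replicate 2 to 11896 in DN female 6 weeks replicate 2. Replicate 1 of each of the 4 female groups shared between 0.597% and 1.43% of the barcodes with each other but at most 0.0589% with the other 12 libraries, which shared 0.108% to 0.393% among themselves; these 4 libraries are called the smaller barcode list. Podocyte-like barcodes were 1.45% of those kept although the labels name glomerular cells. Each p-value below measures the spread between mice.

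Among the genes that define the dividing barcodes, Mki67, a protein that coats mitotic chromosomes, was detected in 91.8% of members and in 0.833% of the other kept barcodes. Birc5, a subunit of the complex that corrects spindle attachment, was detected in 89.7% of members, Top2a, the topoisomerase that untangles replicated DNA, in 84.4%, and Ube2c, which helps to degrade cyclins at mitotic exit, in 80.2%. The mitotic kinase Cdk1 was detected in 76.9% and its partner Ccnb1, cyclin B1, in 54.3%. These genes chose the members, so the percentages describe the choice. The summed UMIs had a median of 23.5 per member and reached 336, with quartiles at 9 and 65.8, and 201 members held all 6 genes.

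At the threshold, 29 members had exactly 4 summed UMIs. Just outside were 21 barcodes with 3 UMIs over 3 genes and 66 with at least 4 UMIs over only 2 genes. A list of 48 G2/M genes that leaves out the 6 genes of the choice took 17.3 UMIs per 10000 in the members with 4 summed UMIs, 10.1 in the barcodes with 3 UMIs over 3 genes and 13.2 in those with 2 genes. It took 85.4 per 10000 in all members and 2.29 in the 90911 barcodes without any UMI of the 6 genes, so both sides of the threshold lay between the bulk of the members and the bulk of the kidney.

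Promoters of late cell-cycle genes often carry the motif TTTGAA, the cell-cycle homology region, near CCAAT boxes. Both motifs were searched on both strands in RefSeq promoter windows of 300 bases (GRCm38.p6). TTTGAA was present in 31 of the 40 G2/M genes with a window, in 5 of 28 S genes, in 4 of the 6 choice genes and in 20.2% of 27025 genes. At least 2 CCAAT were present in 21 of the G2/M genes, 12 of the S genes, 5 of the choice genes and 13.3% of all genes. The windows of Mki67 (chr7:135716330-135716629, minus strand), Cdk1 (chr10:69352863-69353162, minus strand) and Top2a (chr11:99024140-99024439, minus strand) are shown as genes of the choice whose windows hold both motifs. Birc5 (chr11:117848987-117849286, plus strand), another gene of the choice, holds neither set of letters in its window. Capitals mark TTTGAA or its reverse complement TTCAAA and CCAAT or its reverse complement ATTGG; where 2 of them overlap, the letters run together.
Mki67: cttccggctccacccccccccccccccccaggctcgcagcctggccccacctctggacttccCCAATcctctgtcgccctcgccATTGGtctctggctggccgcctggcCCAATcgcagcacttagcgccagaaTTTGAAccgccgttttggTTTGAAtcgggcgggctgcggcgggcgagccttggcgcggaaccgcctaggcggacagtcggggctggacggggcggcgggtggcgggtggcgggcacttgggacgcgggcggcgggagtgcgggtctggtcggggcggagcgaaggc
Cdk1: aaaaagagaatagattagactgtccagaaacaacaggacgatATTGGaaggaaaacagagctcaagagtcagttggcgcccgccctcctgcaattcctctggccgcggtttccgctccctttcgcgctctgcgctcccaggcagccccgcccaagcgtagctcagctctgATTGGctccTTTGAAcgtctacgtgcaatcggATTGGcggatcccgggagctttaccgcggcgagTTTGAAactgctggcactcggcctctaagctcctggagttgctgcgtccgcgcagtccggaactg
Top2a: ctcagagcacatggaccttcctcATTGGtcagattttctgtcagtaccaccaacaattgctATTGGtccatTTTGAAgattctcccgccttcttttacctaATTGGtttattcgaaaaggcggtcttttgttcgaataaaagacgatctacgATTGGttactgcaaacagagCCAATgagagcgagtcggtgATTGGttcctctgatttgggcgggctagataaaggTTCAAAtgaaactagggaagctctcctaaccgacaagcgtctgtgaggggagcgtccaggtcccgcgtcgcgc
Birc5: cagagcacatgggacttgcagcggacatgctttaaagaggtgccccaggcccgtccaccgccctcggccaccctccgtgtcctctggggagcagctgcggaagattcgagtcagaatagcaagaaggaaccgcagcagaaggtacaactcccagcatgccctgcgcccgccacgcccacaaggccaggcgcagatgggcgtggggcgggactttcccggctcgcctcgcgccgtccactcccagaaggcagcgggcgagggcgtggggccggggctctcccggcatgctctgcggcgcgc

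The dividing share of kept barcodes was low in every library and varied widely between mice of a group. At 6 weeks, it was 0.0342% and 0.459% in the control females, 0.743% and 0.225% in the control males, 0.196% and 0.640% in the DN females, and 1.75% and 0.813% in the DN males. At 12 weeks, it was 0.541% and 0.345% in the control females, 0.191% and 0.247% in the control males, 0.265% and 0.569% in the DN females, and 0.623% and 0.647% in the DN males. DN male 6 weeks replicate 1 stood highest with 144 dividing barcodes (exact 95% binomial interval 1.48% to 2.06%), 28.0% of all members, and control female 6 weeks replicate 1 stood lowest with 1 (0.000865% to 0.190%). Intervals cover counting error only. The genotypes overlapped at each age.

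**Figure D1:**
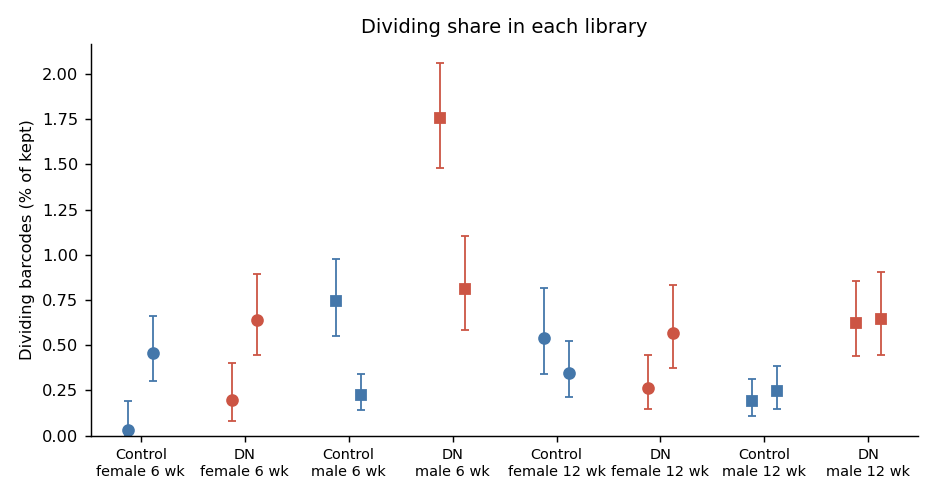
Dividing barcodes as a percent of kept barcodes in each of 16 libraries, by genotype, sex and age; bars are exact 95% binomial intervals. DN males lie at or above 0.623%, while control males other than replicate 1 at 6 weeks lie at or below 0.247%.

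Whether diabetic kidneys hold more dividing cells was asked over mice. The share averaged 0.688% ± 0.477 (SD, n = 8) in DN and 0.348% ± 0.225 (SD, n = 8) in control libraries, a ratio of 1.98, and DN was higher in 7 of 8 pairs with the same sex, age and replicate number. The exact two-sided permutation test within sex and age gave p = 0.0448 (smallest possible 0.00154), and the sign-flip test over the pairs gave an exact p = 0.0391. Without DN male 6 weeks replicate 1 the difference dropped from 0.340 to 0.188 percentage points (exact permutation p = 0.144). The call was also lost without any of 9 further libraries: control female 6 weeks replicates 1 and 2, control female 12 weeks replicate 2, control male 6 weeks replicate 2, control male 12 weeks replicates 1 and 2, DN male 6 weeks replicate 2 and DN male 12 weeks replicates 1 and 2 (exact permutation p 0.0509 to 0.106, differences 0.296 to 0.356).

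Depth moved with genotype: 16914 of 51546 kept control barcodes had under 2000 UMIs, against 8435 of 42890 DN barcodes (32.8% and 19.7%). Control male 6 weeks replicate 2 held 6653 of these control barcodes; without it the control share was 24.6%. Members were deeper than the rest, with medians of 17561 and 6032 UMIs, so shallow barcodes had less chance to qualify. Among barcodes with at least 2000 UMIs the shares were 0.792% ± 0.498 (SD, n = 8) in DN and 0.462% ± 0.260 (SD, n = 8) in control, with an exact permutation p = 0.0355. After each such barcode was thinned to 2000 UMIs, the same thresholds gave 0.402% ± 0.198 and 0.206% ± 0.122 (exact permutation p = 0.0108, n = 8 each). Requiring only 2 UMIs over 2 genes at that depth gave 0.620% ± 0.343 and 0.377% ± 0.207 (exact permutation p = 0.0509, n = 8 each). In the 12 libraries of the larger barcode list the difference was 0.473 percentage points (exact permutation p = 0.0139). The libraries left out are all female, so males weigh more in this set. Over all libraries the DN difference was 0.608 percentage points in males and 0.0731 in females. Whether the barcode list or the sex makeup moved the value was not tested.

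Neither age passed alone, in tests that permuted genotype over females and males together, unlike the test over both ages. At 6 weeks DN averaged 0.851% ± 0.656 and control 0.365% ± 0.306, and at 12 weeks 0.526% ± 0.177 and 0.331% ± 0.154 (SD, n = 4 each; exact permutation p = 0.229 and 0.114, smallest possible 0.0286). The DN difference at 12 weeks was lower than that at 6 weeks by 0.291 percentage points, with an exact permutation p = 0.438. In males DN averaged 0.959% ± 0.537 against 0.351% ± 0.262 (exact permutation p = 0.0857), and in females 0.418% ± 0.220 against 0.345% ± 0.222 (exact permutation p = 0.657; SD, n = 4 each). These tests within a sex permuted genotype over both ages together. Female pairs differed by 0.162 and 0.181 percentage points at 6 weeks and by -0.276 and 0.224 at 12 weeks. Replicate 1 of each female group is in the smaller barcode list and no male library is, so sex contrasts also carry that list. The DN difference was larger in males by 0.535 percentage points, but this did not pass its own exact permutation test (p = 0.171). Over both genotypes the share was 0.655% ± 0.508 in males and 0.381% ± 0.208 in females (exact permutation p = 0.153, n = 8 each). It was 0.428% ± 0.186 at 12 weeks and 0.608% ± 0.540 at 6 weeks (exact permutation p = 0.327, n = 8 each); within the larger barcode list alone the 12 week share was lower by 0.335 percentage points (exact permutation p = 0.0278), but by 0.257 at 2000 UMIs with 2 UMIs over 2 genes, where the call was lost (exact permutation p = 0.153). The 4 libraries of the smaller list ran the other way, with a mean of 0.403% at 12 weeks and 0.115% at 6 weeks, and were too few for a test. Without DN male 6 weeks replicate 1 the 12 minus 6 week difference over all libraries moved from -0.180 to -0.016 percentage points. The DN difference at 6 weeks then fell from 0.486 to 0.185, and the male minus female difference from 0.274 to 0.117.

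Barcodes were assigned to 12 lineages by UMIs of marker genes that share nothing with the 6 genes of the choice; 415 members received a lineage and 99 (19.3%) did not, against 18.4% of the other kept barcodes. Members were found in every lineage, most in PT-like barcodes with 83, connecting tubule-like with 82 and principal cell-like with 58. Endothelial-like barcodes held 50 members, intercalated cell-like 34, the joint class of mesangial, mural and fibroblast-like cells 34, and distal convoluted tubule-like 29. Lymphoid-like barcodes held 15, thick ascending limb-like 13, myeloid-like 12, thin limb-like 4 and podocyte-like 1. Tubule lineages held 303 of the 415 named members (73.0%) and 75.9% of the other named barcodes.

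Pooled over the libraries, the share of a lineage that was dividing was 3.89% in lymphoid-like barcodes (exact 95% binomial interval 2.19% to 6.33%) and 1.61% in myeloid-like ones (0.834% to 2.79%). It was 0.787% in connecting tubule-like, 0.718% in distal convoluted tubule-like, 0.563% in mesangial, mural and fibroblast-like, 0.523% in principal cell-like, 0.496% in endothelial-like and 0.491% in PT-like barcodes. Intercalated cell-like barcodes stood at 0.335%, thick ascending limb-like at 0.302% and thin limb-like at 0.255%. Podocyte-like barcodes stood at 0.0731%, with 1 of 1368 (0.00185% to 0.407%), and the member came from DN male 6 weeks replicate 1. This member also held 2 UMIs of the mesangial gene Itga8, and whether it was a mixed droplet was not tested. Pooled shares mix lineage with library, since both the dividing share and the lineage makeup differed between libraries, and their intervals take no account of the spread between mice.

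With each of the 16 libraries weighted equally, the spread between mice was as wide as most of the shares. Lymphoid-like barcodes averaged 4.89% ± 7.65 (SD, n = 16, 0% to 28.6%) on 10 to 54 barcodes a library, with members in 8 libraries, and myeloid-like ones 1.49% ± 2.19 with members in 7. Connecting tubule-like barcodes averaged 0.777% ± 0.651 (0% to 2.50%), distal convoluted tubule-like 0.616% ± 0.694, endothelial-like 0.492% ± 0.512, mesangial, mural and fibroblast-like 0.477% ± 0.531, principal cell-like 0.442% ± 0.543 and PT-like 0.367% ± 0.468 (0% to 1.46%). The remaining tubule lineages averaged 0.285% ± 0.362 in intercalated cell-like, 0.367% ± 0.483 in thick ascending limb-like and 0.354% ± 0.783 in thin limb-like barcodes. Neighbours in this order differed by less than their spread.

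**Figure D2:**
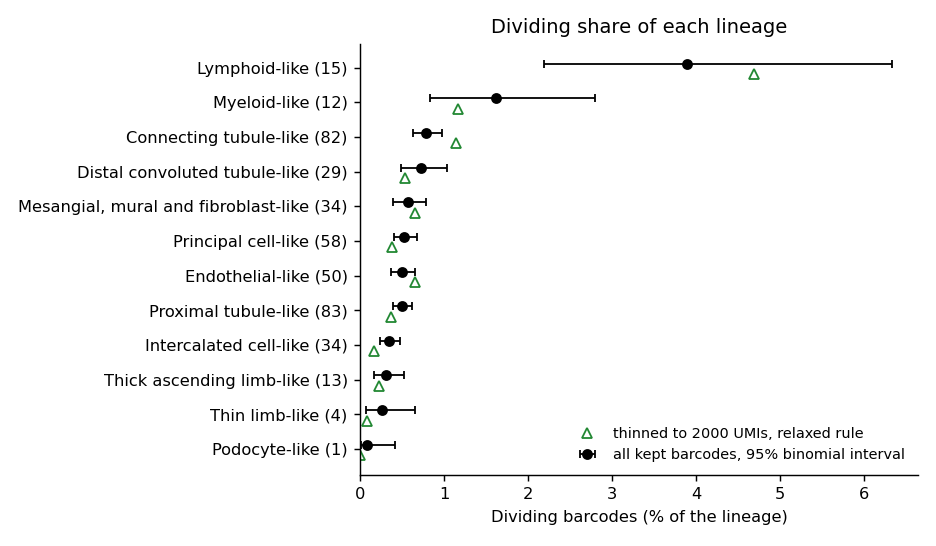
Dividing barcodes as a percent of each lineage over all libraries, with the number of dividing barcodes in brackets; circles show all kept barcodes with exact 95% binomial intervals and triangles show barcodes thinned to 2000 UMIs with at least 2 UMIs over 2 genes. Shares are pooled over libraries; lymphoid-like barcodes lie highest and podocyte-like barcodes lowest under both.

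Lineage makeup was tested over the 15 libraries with at least 5 members of a named lineage, as the share of each lineage among members minus its share among other barcodes of that library (exact sign-flip permutation test, adjusted over 12 lineages). Connecting tubule-like barcodes made up 23.9% ± 21.7 (SD, n = 15) of members and 13.7% ± 9.64 of others, higher in 10 of 15 libraries (permutation adjusted p = 0.0156). Intercalated cell-like barcodes made up 6.98% ± 7.41 of members and 13.4% ± 3.16 of others (permutation adjusted p = 0.0106, n = 15), PT-like ones 15.0% ± 13.8 and 22.3% ± 6.99 (permutation adjusted p = 0.0397, n = 15), and podocyte-like ones 0.0612% ± 0.237 and 1.67% ± 1.51 (permutation adjusted p = 0.00146, n = 15). Podocyte-like barcodes were so rare that most libraries would hold 0 among their few members without any depletion. The sign-flip test takes differences up and down as equally likely, so its p cannot be read at face value for this lineage, with 1 member. Lymphoid-like barcodes, at 5.81% ± 10.6 of members and 0.475% ± 0.224 of others, missed the threshold (permutation adjusted p = 0.0529, n = 15), which they passed without control male 12 weeks replicate 1 (permutation adjusted p = 0.0480). The PT-like call was lost under each of the 4 alternatives tried (permutation adjusted p 0.0642 to 0.166) and without any library other than control female 6 weeks replicate 1, control male 6 weeks replicate 1, control male 12 weeks replicate 1 and DN male 6 weeks replicates 1 and 2 (permutation adjusted p 0.0507 to 0.0776). Without barcodes of mixed tubule and non-tubule markers the connecting tubule-like and intercalated cell-like calls were lost as well (permutation adjusted p = 0.0557 each), and within the larger barcode list the intercalated cell-like call was (permutation adjusted p = 0.0547).

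Depth differs between lineages, with medians from 2716 UMIs in connecting tubule-like to 16320 in intercalated cell-like barcodes. At 2000 UMIs and 2 UMIs over 2 genes, 6 lineages passed: connecting tubule-like and lymphoid-like higher among members (permutation adjusted p = 0.0107 and 0.0131), and intercalated cell-like, principal cell-like, thin limb-like and podocyte-like lower (permutation adjusted p = 0.000366, 0.0119, 0.0131 and 0.000366). PT-like barcodes then missed the threshold with an adjusted permutation p = 0.0642. No podocyte-like barcode of 1068 qualified at that depth, and 1 thin limb-like barcode did. For such rare lineages the sign-flip test has the limit given above. Among barcodes that were not members, a UMI of any of the 6 genes was found at 2000 UMIs in 0.365% of podocyte-like barcodes and in 5.69% of lymphoid-like, 2.75% of myeloid-like, 2.05% of mesangial, mural and fibroblast-like and 0.408% of intercalated cell-like ones. Median depths before thinning were 9414, 4066, 6097, 6357 and 17622 UMIs. How much of these shares was free RNA was not tested.

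Genes of subtypes were read within lineages, as descriptions. All of them are among the markers that assigned the lineages, so how many members held them is partly fixed by that assignment. Members were deeper, which raises detection, so levels in UMIs per 10000 are compared and counts of members with a UMI stand beside them. Ehd3, a marker of glomerular endothelium, stood at 5.92 in dividing endothelial-like barcodes and 13.5 in the others, and 40 of 50 members held it. Plvap, a marker of fenestrated peritubular capillaries, stood at 0.984 and 2.28 and was held by 9. Fbln2, a marker of larger arteries, stood at 4.76 and 3.14 and was held by 10.

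In the mesangial, mural and fibroblast-like class, Itga8, the mesangial integrin, stood at 9.44 UMIs per 10000 in members and 13.1 in the others, and 31 of 34 members held it. Ptn, another mesangial gene, stood at 34.9 and 22.8 and was held by all 34. The smooth muscle genes Acta2 and Myh11 stood at 6.80 and 0.844 in members and at 51.0 and 17.3 in the others. The juxtaglomerular gene Ren1 was found in 0 of 34, which allows up to 8.82% of barcodes with a UMI (3 counts of the total), and in 20.3% of the others. Of the fibroblast genes, the collagen Col1a1 was found in 0 of 34 and 3.58% of the others, whereas the proteoglycan Dcn stood at 1.55 and 1.00 UMIs per 10000 and was held by 20 of 34 members.

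Among 15 dividing lymphoid-like barcodes, 12 held the T cell receptor subunit Cd3e (2.92 UMIs per 10000, 3.22 in the others), 11 its partner Cd3d (5.28 and 4.67), 8 the cytotoxic granule gene Nkg7 (8.20 and 4.81) and 2 the B cell receptor gene Cd79a (3.61 and 4.72). Of the 12 myeloid-like ones, 7 held C1qa (19.4 and 12.1) and 10 held Csf1r (3.04 and 3.58), both macrophage genes. Lyz2, another myeloid marker, was held by 11 and stood lower in members (18.4 and 82.95). In PT-like barcodes the phosphate transporter Slc34a1 stood at 15.3 UMIs per 10000 in members and 23.3 in the others, the endocytic receptor Lrp2 at 9.10 and 14.1, and Slc5a2, the glucose transporter of the early segment, at 3.27 and 3.01. Slc5a12 and Gatm, also genes of the early segment, were lower in members, at 2.34 and 3.28 and at 10.9 and 13.6. In intercalated cell-like barcodes Slc4a1, the exchanger of acid-secreting cells, stood at 3.32 and 3.79 and was held by 29 of 34 members, and Slc26a4, pendrin of base-secreting cells, stood at 1.56 and 7.55 and was held by 10. The water channel Aqp2 of principal cells stood at 47.0 in members and 90.1 in the others, calbindin Calb1 of the connecting tubule at 64.8 and 82.8, and the thiazide-sensitive transporter Slc12a3 of the distal convoluted tubule at 28.1 and 66.3; every member of the respective lineage held them.

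The dividing share within a lineage was compared between genotypes for the 7 lineages with at least 20 members, and none passed the exact permutation test after adjustment over the 7. Endothelial-like barcodes averaged 0.771% ± 0.567 in DN and 0.213% ± 0.252 in control libraries, higher in DN in 7 of 8 pairs (exact permutation p = 0.0293, adjusted p = 0.0756, SD, n = 8 each). These barcodes ran from 66 to 1478 a library. The values of DN male and DN female 12 weeks replicate 2 rest on 2 of 121 and 1 of 108 barcodes. The mesangial, mural and fibroblast-like class averaged 0.709% ± 0.634 and 0.244% ± 0.283, and PT-like barcodes 0.538% ± 0.468 and 0.195% ± 0.429 (each exact permutation p = 0.0324, adjusted p = 0.0756, n = 8 each). The other 4 lineages had permutation adjusted p from 0.219 to 0.565. At 2000 UMIs and 2 UMIs over 2 genes, the adjusted permutation p of all 7 lay between 0.340 and 0.972, and the difference turned in connecting tubule-like and intercalated cell-like barcodes. Without DN female 12 weeks replicate 1 the mesangial, mural and fibroblast-like class and PT-like barcodes passed (permutation adjusted p = 0.0432 and 0.0486), and without control male 6 weeks replicate 1 PT-like barcodes did (permutation adjusted p = 0.0324). Without DN male 6 weeks replicate 1 the difference dropped from 0.464 to 0.263 percentage points in the mesangial, mural and fibroblast-like class and from 0.343 to 0.211 in PT-like barcodes (permutation adjusted p = 0.384 and 0.405).

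In DN male 6 weeks replicate 1, principal cell-like barcodes held 25 members, PT-like 27, endothelial-like 17, intercalated cell-like 13, and the mesangial, mural and fibroblast-like class 11. Without it, the principal cell-like difference moved from 0.241 to -0.00613 percentage points. Dividing PT-like cells were scarce in females: control females held 0 among 2482 PT-like barcodes, which allows a share of up to 0.121% at 3 counts of the total (exact 95% binomial bound 0.149%), and DN females held 10 among 3717. Control males held 21 among 4499, of which 17 came from replicate 1 at 6 weeks, and DN males held 52 among 6193. The PT-like share was higher in males than females by 0.484 percentage points (exact permutation p = 0.00926, adjusted over the 7 lineages p = 0.0648), and by 0.302 with barcodes thinned to 2000 UMIs (exact permutation p = 0.0417, adjusted p = 0.276). The connecting tubule-like share was higher in males by 0.671 (exact permutation p = 0.0370, adjusted p = 0.115) and by 0.440 when thinned (exact permutation p = 0.407), so neither difference passed the adjustment. The smaller barcode list holds only females, so these sex contrasts also carry that list.

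**Figure D3:**
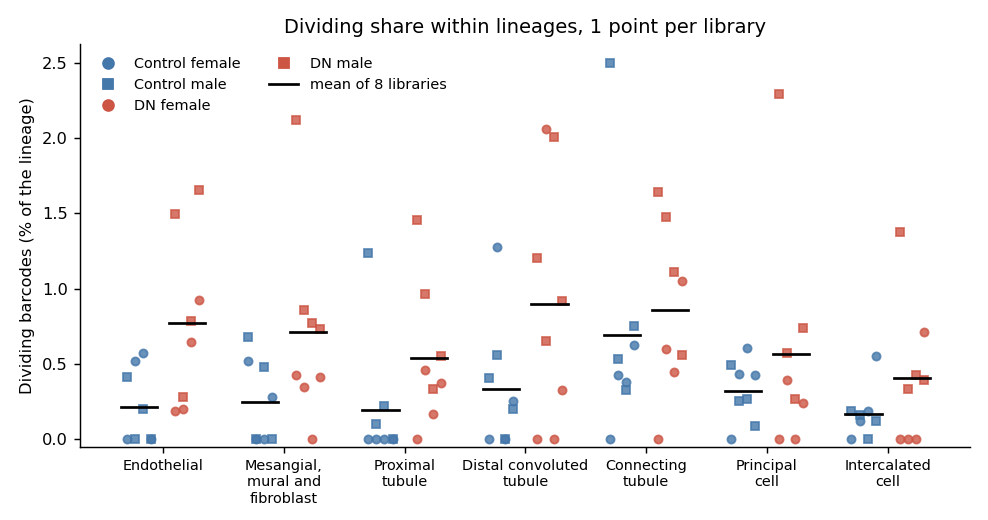
Dividing barcodes as a percent of each of 7 lineages, with 1 point per library and the mean of 8 libraries as a bar; blue is control and red is DN, circles are females and squares males. DN means lie above control means in all 7, with overlapping points, and many libraries stand at 0.

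The phase of the members was read from 36 S genes and 48 G2/M genes that leave out the 6 genes of the choice. In the 14 libraries with at least 10 members, S genes took 25.5% ± 8.01 of the UMIs of both lists in DN and 22.7% ± 1.87 in control (SD, n = 7 each; exact permutation p = 0.338). The difference of 2.86 percentage points ran from 1.405 to 5.01 when each library was left out in turn. Control libraries lay between 19.7% and 25.4%, and DN libraries between 12.6% in female 6 weeks replicate 2 and 34.2% in female 12 weeks replicate 2, so the DN range enclosed that of the controls. Pooled over libraries, S genes took 41.1% of these UMIs in myeloid-like members, 31.5% in intercalated cell-like, 29.8% in connecting tubule-like, 27.5% in endothelial-like, 22.3% in PT-like, 16.6% in mesangial, mural and fibroblast-like and 15.6% in thick ascending limb-like members. These pooled shares mix lineage with library, the myeloid-like value rests on 12 members, and no order of lineages was tested. How many S phase cells the choice misses was not tested.

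Each library's members were set beside its other barcodes, weighted to the same lineages, in the 13 libraries with at least 10 members of a named lineage. Depth (medians of 17561 UMIs in members and 6032 in other kept barcodes) and mitochondrial share were not matched. Since the members were chosen on this contrast, the values are descriptions, given as log2 ratios of CPM (a gene's UMIs scaled to the same total in every sum) with 5 added. All 36 S genes and all 48 G2/M genes were higher in at least 11 of 13 libraries, with list medians of 2.39 and 4.18, against a median of 0.01 and 2161 such genes among 10476 genes with at least 50 UMIs. Outside the 6 genes of the choice, the largest median ratios belonged to Cenpf, a kinetochore protein, at 6.68 (685 CPM in members), and Prc1, which bundles spindle microtubules for cytokinesis, at 6.12 (388 CPM). Pbk, a mitotic kinase, stood at 5.73, Nusap1, a spindle protein, at 5.71, Hmmr at 5.67, Cdca3 at 5.66 and Pclaf, a partner of the replication clamp, at 5.44.

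The next genes were Ccnb2, cyclin B2, at 5.25, Cdc20, which activates the anaphase ligase, at 5.24, Tpx2 at 5.20, Cdca8 at 5.14, the noncoding Lockd at 5.04 and Stmn1, which destabilises microtubules, at 5.01. They were followed by Cdkn3 at 4.95, Anln, a cytokinesis scaffold, at 4.95, Rrm2, the ribonucleotide reductase subunit, at 4.94, Aspm at 4.89, Ckap2 at 4.88, Knl1 at 4.87 and Ccna2, cyclin A2, at 4.86. All 20 genes were higher in 13 of 13 libraries, and 13 of the 20 are in the G2/M list.

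Genes that gate entry into the cycle went in both directions. Of 6 G1 cyclins and kinases, Cdk2 and Cdk4 were higher in at least 11 libraries (medians of 1.08 and 0.79), whereas cyclin D1, Ccnd1, was lower in 11 of 13 libraries at -0.69 (301 CPM in members, 429 in matched others), Ccnd2 was lower in 13 of 13 at -0.94 and Ccnd3 stood at 0.08. Summed over libraries, Ccnd1 was higher in members than in others in endothelial-like (712 and 445 CPM), mesangial, mural and fibroblast-like (742 and 513 CPM) and intercalated cell-like barcodes (115 and 82.6 CPM), and lower in the other tubule lineages, such as PT-like (269 and 525 CPM) and principal cell-like ones (455 and 858 CPM). Among the kinase inhibitors, Cdkn2c (2.95), Cdkn2d (2.64) and Cdkn1a (1.43) were higher in 13 of 13 libraries, and Cdkn1b stood at 0.13. Summed over libraries, Cdkn1a, the p53 target p21, stood at 122 CPM in dividing PT-like barcodes and 36.1 in others, at 105 and 3.87 in principal cell-like ones and at 524 and 434 in endothelial-like ones. It was lower in members than in others in myeloid-like (49.8 and 132 CPM) and lymphoid-like barcodes (18.5 and 63.3 CPM), on 9 and 4 UMIs. All 11 chromatin and cytoskeleton genes were higher in at least 11 libraries, among them Ptma at 1.40, H2afz, a histone variant, at 2.98 and Hmgb1 at 1.44.

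Among all 10476 genes, 20.6% were higher and 15.4% lower in at least 11 of the 13 libraries. Of 13 genes of differentiated PT, 8 were lower in at least 11 of 13 libraries and 0 higher (list median -0.65), among them Miox at -0.72 and Slc34a1 at -1.004, while Lrp2 stood at -0.44. All 13 but Ass1 also served to assign PT-like barcodes. Of the 12 tubule injury and repair genes with enough UMIs, 3 were higher and 3 lower in at least 11 libraries (list median -0.10). Krt8, a keratin of simple epithelia, was higher in 13 of 13 at 1.42 and Cd24a in 12 of 13 at 0.64, whereas Clu was lower in 11 of 13 at -0.74 and Spp1, osteopontin, stood at -0.21. Of 12 growth factor signalling genes, 0 were higher and 1 was lower in at least 11 libraries, both smaller shares than among all genes; the receptors Igf1r, Met and Insr stood at -0.22, -0.27 and -0.32. The dissociation stress genes had a list median of -0.48, with 7 of 17 lower and 1 higher, and Jund stood at -0.44 and Ier3 at -0.72.

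**Figure D4:**
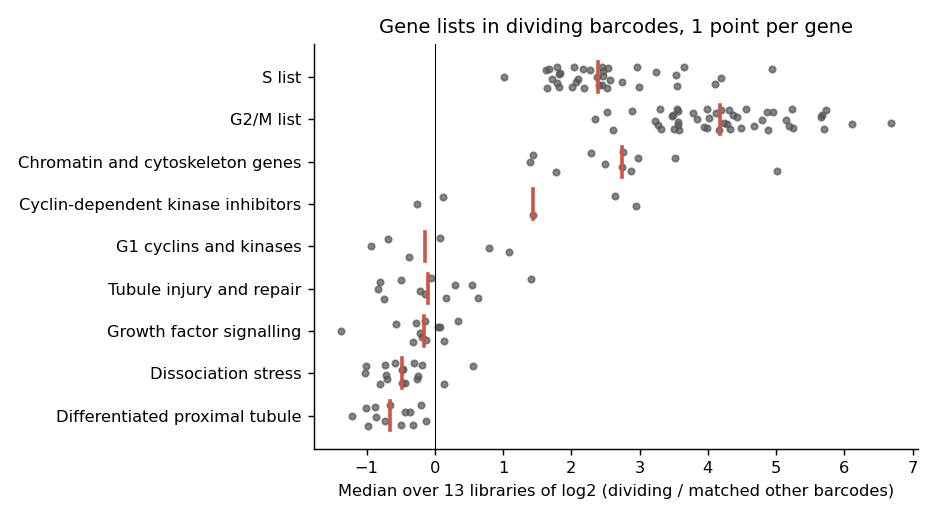
Median over 13 libraries of the log2 ratio of CPM between dividing barcodes and other barcodes of the same lineages, 1 point per gene and a red bar at the list median. The S and G2/M lists lie to the right of 0 (medians 2.39 and 4.18) and the differentiated PT list to the left (-0.65).

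Expression within dividing cells was compared between genotypes on UMIs summed over the members of each library, with edgeR's quasi-likelihood test across 8559 genes in the 14 libraries with at least 10 members. Control female 6 weeks replicate 1 and DN female 6 weeks replicate 1, with 8 members together, were left out. At 6 weeks 0 genes passed an adjusted p of 0.05 (0.0% of genes tested; 211 at an unadjusted p under 0.05, and 0 with DESeq2). At 12 weeks 3 passed (0.0351%), and over both ages 1 did (0.0117%); all were higher in DN. The 2 age comparisons and the joint one share libraries.

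At 12 weeks Cyp4a10, a fatty acid omega-hydroxylase of PT, stood at 0, 1.80, 0 and 0 CPM in the 4 controls and at 136, 69.8, 20.6 and 62.9 CPM in the 4 DN libraries. The DN libraries all lay above the controls. The controls held 1 UMI in all, so the ratio of summed counts was 69.6 with an exact 95% binomial interval of 12.2 to 2778. This interval covers counting error only and takes no account of the spread between mice. Of the 100 DN UMIs, 44 came from DN female 12 weeks replicate 2. The edgeR test over libraries gave an adjusted p = 0.0426. Over both ages DN averaged 55.2 ± 40.7 CPM and control 4.10 ± 5.78 CPM (log2 fold change 3.84 ± 0.55 SE, edgeR adjusted p = 0.0475, SD, n = 7 each).

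Pter, a PT hydrolase of N-acetyltaurine, stood at 7.31, 5.39, 23.4 and 2.53 CPM in the 12 week controls and at 151, 60.3, 88.0 and 104 CPM in DN (log2 fold change 3.34 ± 0.50 SE, edgeR adjusted p = 0.0426). With replicate number as a block its adjusted p became 0.0530. Idh1, the cytosolic isocitrate dehydrogenase, stood at 43.8, 19.8, 50.6 and 17.7 CPM in the controls and at 197, 103, 132 and 132 CPM in DN (log2 fold change 2.11 ± 0.33 SE, edgeR adjusted p = 0.0455). For both genes the groups did not overlap at 12 weeks, but at 6 weeks they did: Pter stood at 16.2, 118 and 99.7 CPM in control and 21.8, 63.1 and 98.2 CPM in DN. All libraries share 1 estimate of the spread, so a 6 week library can also decide a call. Without control female 12 weeks replicate 1 or 2, control male 6 weeks replicate 2, control male 12 weeks replicate 2, DN female 12 weeks replicate 1 or 2, DN male 6 weeks replicate 2 or DN male 12 weeks replicate 2, none of the 3 genes was called at 12 weeks (edgeR adjusted p 0.0622 to 0.298). Cyp4a10 also lost its call without control male 12 weeks replicate 1 (0.0530), Pter and Idh1 theirs without DN male 12 weeks replicate 1 (0.0929 and 0.104), and Idh1 without control female 6 weeks replicate 2, DN female 6 weeks replicate 2 or DN male 6 weeks replicate 1 (0.0628 to 0.0686). Over both ages Cyp4a10 kept its call only without control male 6 weeks replicate 1, DN female 12 weeks replicate 2 or DN male 12 weeks replicate 1, and the adjusted p of the other 11 removals reached 0.178.

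The lineage makeup of the members moved with these genes. PT-like barcodes made up 0% to 20.0% of members in the 12 week controls, at 0% in 3 of 4 libraries, and 13.5% to 30.3% in 12 week DN libraries; their part in the gene differences was not tested. In the 12 week DN libraries PT-like members held 56 of the 100 UMIs of Cyp4a10, 138 of 165 of Pter and 102 of 241 of Idh1, and in female replicate 2 they held 9 of 44 of Cyp4a10. In the PT-like barcodes that were not dividing, the 12 week values were 522 ± 65.1 CPM in control and 543 ± 53.8 CPM in DN for Pter, 580 ± 94.5 and 640 ± 82.4 for Idh1, and 209 ± 214 and 295 ± 122 for Cyp4a10 (SD, n = 4 each). For Cyp4a10 at 12 weeks control males stood at 43.8 and 22.9 CPM and DN males at 159 and 229 CPM, without overlap, whereas control females stood at 305 and 465.6 CPM and DN females at 360 and 429 CPM. At 6 weeks neither sex overlapped, with males at 33.8 and 43.1 CPM in control and 214 and 268 CPM in DN, and females at 429 and 383 CPM in control and 464 and 649 CPM in DN. A difference between the sexes was not tested. A fit within dividing PT-like cells was not made, since only 1 control and 3 DN libraries held 10 of them.

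**Figure D5:**
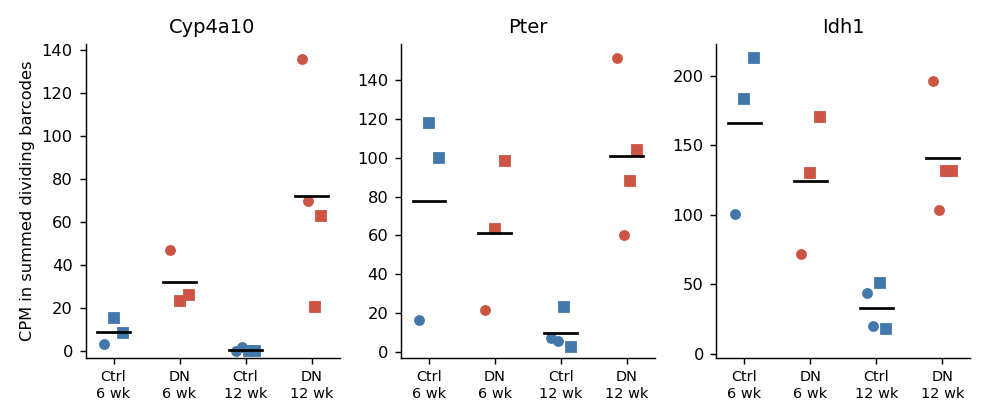
CPM of Cyp4a10, Pter and Idh1 in the summed dividing barcodes of each library with at least 10 of them, by genotype and age, with group means as bars; blue is control, red is DN, circles are females and squares males. At 12 weeks all 4 DN libraries lie above all 4 controls for each gene.

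Genes next in rank were not called. At 12 weeks the immediate early gene Zfp36 stood at 39.6 ± 10.1 CPM in DN and 10.2 ± 3.29 in control (edgeR adjusted p = 0.0607), and the tetraspanin Tspan8 at 90.7 ± 18.2 and 236 ± 62.3 (edgeR adjusted p = 0.0733, n = 4 each). Summed over libraries, Tspan8 stood at 470 CPM in principal cell-like, 429 in thick ascending limb-like, 258 in connecting tubule-like and 7.03 in PT-like members. The part of lineage makeup in its difference was not tested. At 6 weeks the lowest p values belonged to Ces1f, Slc12a2, Fhl2, Lcn2 and Itga8; Slc12a2, the NKCC1 cotransporter, stood at 64.3 ± 0.498 and 22.9 ± 4.22 CPM (edgeR adjusted p = 0.278, n = 3 each). Slc12a2, Fhl2 and Itga8 were highest, among barcodes that were not dividing, in the mesangial, mural and fibroblast-like class, which held 1, 11 and 4 members in the fitted 6 week DN libraries and 0, 2 and 0 in the controls; its part in these differences was not tested. Over both ages Cyp4a14, Tbck, Zfp36 and Slc5a10 followed Cyp4a10, with edgeR adjusted p = 0.0732 each. With replicate number as a block, 5 genes passed over both ages, namely Cyp4a10 and Cyp4a14, higher in DN, and Tmem52b, Tbck and Hsd11b2, lower in DN (fitted log2 fold changes -1.46, -1.25 and -1.71), and at 12 weeks Ttr (edgeR adjusted p = 0.0236) took the place of Pter. Tbck was highest in connecting tubule-like and principal cell-like barcodes that were not dividing (346 and 281 CPM). Connecting tubule-like barcodes were 32.6% of control and 12.9% of DN members with a named lineage, pooled over libraries. They were also more frequent among all kept control barcodes (6774 of 51546) than among DN ones (3648 of 42890). Their part in the lower genes was not tested.

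Cell-cycle genes were not called in any of the 3 comparisons. Over both ages 35 of 35 tested S genes and 47 of 48 G2/M genes had a higher fitted level in DN, with median log2 fold changes of 0.58 and 0.33, against 4402 of 8559 genes and a median of 0.01; 13 S genes and 2 G2/M genes had an unadjusted p under 0.05, as did 657 of all 8559 genes (7.68%), so the G2/M count lay below that background. The G2/M median was 0.58 at 6 weeks, with 48 of 48 genes higher, and 0.12 at 12 weeks, with 33 of 48 higher. The S medians were 0.50 and 0.55, with 35 of 35 higher at each age. Genes of a list were read from the same libraries, so these counts are not independent. Over both ages the 6 genes of the choice were higher in 6 of 6 (median 0.28). Endothelial-like members were 14.0% of named members in DN and 8.33% in control, and the mesangial, mural and fibroblast-like class 10.3% and 4.17%. G2/M genes took 132 and 191 UMIs per 10000 in these classes and 77.2 in PT-like members, 22.9% of DN and 14.6% of control. The part of this makeup was not tested. Rrm2 stood at 345 ± 113 CPM in DN and 288 ± 158 in control (SD, n = 7 each), and Atad2 at 237 ± 93.8 and 163 ± 98.9 (edgeR adjusted p = 0.890 and 0.579). Among the kinase inhibitors 0 of 4 tested genes passed, with Cdkn1a at 164 ± 76.8 and 112 ± 104 CPM (edgeR adjusted p = 0.803, n = 7 each). The differentiated PT list had a median of -0.06 at 6 weeks and 1.76 at 12 weeks, with 13 of 13 genes higher in DN at 12 weeks, against 4228 of 8559 genes, and 0 called. PT-like barcodes were 0% of members in 3 of these 4 controls and 13.5% to 30.3% in DN, and their part in this was not tested. All genes of this list but Ass1 also served to assign PT-like barcodes, so the list is no reading separate from the PT-like count. The G1, chromatin, injury, growth factor and stress lists also had 0 called genes, with medians over both ages of 0.34, 0.19, 0.12, -0.38 and 0.19.

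Members were checked for signs of mixed droplets of tubule with non-tubule cells. Mixtures of non-tubule cells alone, such as podocyte with mesangial, are not seen by this check. UMIs of a tubule gene (Cubn or Epcam) together with a non-tubule gene (Pecam1, Pdgfrb or Ptprc) were found in 71 members (13.8%) and in 7.68% of other barcodes; at 2000 UMIs these shares were 0.832% and 1.70%. Without such barcodes the DN difference in dividing share was 0.343 percentage points (exact permutation p = 0.0340), while podocyte-like barcodes were then the 1 lineage whose share among members passed its test. The limit of that test for rare lineages holds here too. Of 2864 barcodes above 7000 detected genes, left out of the choice, 94 met the mitotic rule, 67 in DN and 27 in control libraries. With them included, a setting chosen after seeing the data, the dividing share averaged 0.808% in DN and 0.383% in control (exact permutation p = 0.0309).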

How the data were processed

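Single-cell RNA-seq of 16 mouse kidney libraries was used. The authors aligned and counted reads with Cell Ranger 3.0.2 (per the labels) against mm10, and deposited raw UMI counts per gene and barcode; 31053 genes were listed. The kit version (v2 or v3) of each library was not given in the sources used here. Deposited barcodes were filtered at 200 to 7000 genes and 50% mitochondrial UMIs, after the first filters of the study. Its later removal of cells with markers of the opposite lineage and its limit of 20% mitochondrial content for non-tubular cells were not applied, except as alternatives over all barcodes; no doublet caller was run. The members, the gene lists and the markers were chosen with earlier results of these data known.

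A barcode received the lineage with the highest mean z-score of log(1 + UMIs per 10000) over its markers, if that was at least 0.5 and 2 times the second, with at least 2 markers and 3 UMIs. Distal convoluted tubule, connecting tubule and principal cell did not compete, and fibroblast and mural lists were joined; these thresholds were set after seeing the data. Shares were compared over libraries with exact permutation tests (NumPy 2.4.6). Summed counts were fitted with edgeR 4.0.16 (quasi-likelihood, Benjamini-Hochberg adjustment) under R 4.3.3, with each combination of sex and age as a stratum, and with DESeq2 1.42.0 as alternative; the fit was tested on simulated data. Other alternatives changed the mitotic thresholds, depth, mitochondrial limit, lineage lead, gene filter and libraries. Genes named in each fit were the called ones by size, or the 5 with the lowest p where fewer than 5 were called; of members against others, the 20 with the highest median ratio.

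The main permutation tests and the main edgeR fit did not use replicate numbers as pairs. Pairs of DN with control by replicate number entered only the sign-flip test over pairs, the counts of pairs and the replicate block. This pairing rested on the differences between replicates 1 and 2, which correlated between genotypes in all 4 sets of sex and age (r = 0.679 to 0.901 across 12585 genes, which are not independent replicates). In females, replicates 1 and 2 also differ in barcode list. Precision was limited by counts: the lowest library held 1 member and the highest 144.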

Additional observations from a re-analysis of the deposited data

Results flagged for a closer look

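DN male 6 weeks replicate 1 stood apart from the other 7 DN libraries in its dividing share, at 1.75% (Dixon's test of the gap over the range). Its endothelial-like dividing share of 1.495% also stood apart among the 4 DN libraries at 6 weeks. Among controls, replicate 1 of the males stood apart in the PT-like dividing share at both ages, with 1.24% at 6 weeks, where the library held 17 of the 18 dividing PT-like barcodes of its age, and 0.222% at 12 weeks. The latter rests on 3 dividing barcodes of 1352, and with the other 3 libraries at 0 (of 634, 809 and 784) any value above 0 would have stood apart, so it carries no weight. In all 34 groups of libraries were examined and 4 gave such a value; the nominal chance rate is about 1 in 20 groups, and it does not hold for groups in which most libraries are at 0.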

How the results depend on the processing

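The DN difference in dividing share over both ages (0.340 percentage points) kept its direction under all 13 alternatives and its call under 8 of them. It was 0.235 with at least 6 UMIs over 4 genes, 0.242 at 2000 UMIs with 2 UMIs over 2 genes, 0.252 at 5000 UMIs, 0.323 with a mitochondrial limit of 20% and 0.300 for barcodes of a named lineage alone, with exact permutation p from 0.0509 to 0.114; this last setting, the inclusion of barcodes over 7000 genes, and thinning within the larger barcode list were chosen after seeing the data, as were all alternatives for the change of the DN effect with age. The 12 against 6 week difference passed only in the larger barcode list (-0.336), and not in that list at 2000 UMIs (-0.257). The number of lineages whose share among members differed moved from 4 to 1 without mixed markers and to 2 in the larger list. Reversed values were 1.26 percentage points for the mesangial, mural and fibroblast-like share at 2000 UMIs, -1.49 for the endothelial-like share in the larger list, and -0.200 and -0.00537 for DN against control within connecting tubule-like and intercalated cell-like barcodes at 2000 UMIs. The cause of these moves was not tested.

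Called genes moved most. DESeq2 called 52 of 8559 genes at 12 weeks (37 higher and 15 lower in DN) and 38 over both ages (19 higher and 19 lower). Testing every gene with a UMI called 86, 315 and 294 of 17633 genes at 6 weeks, 12 weeks and both ages. Of these, 58, 227 and 204 were higher in DN and 28, 88 and 90 lower. Libraries with at least 20 members gave 0 and 0 of 9085 genes at 12 weeks and both ages (325 and 376 at an unadjusted p under 0.05). Dropping mixed markers gave 5, all higher in DN, and 0 of 8248 genes (676 and 597 unadjusted). The replicate block called 5 genes over both ages (Cyp4a14, Tmem52b, Tbck and Hsd11b2 beside Cyp4a10), ended the call of Pter and added Ttr at 12 weeks; it changed no other call among the results it was run on.

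Leaving out each replicate in turn gave a DN difference of 0.188 to 0.411 over both ages. The change of the DN effect from 6 to 12 weeks ran from -0.509 to 0.0104, turning without DN male 6 weeks replicate 1. The endothelial-like makeup difference ran from -0.609 (without DN female 12 weeks replicate 1) to 2.69, and the principal cell-like DN difference from -0.00613 to 0.321. Lineages passing DN against control ran from 0 to 2, and called genes from 0 to 1 at 6 weeks, 0 to 8 at 12 weeks and 0 to 9 over both ages; at 6 weeks the 1 gene came without control male 12 weeks replicate 1 or 2.

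Depth limits these results: a shallow barcode can hold too few UMIs of the 6 genes to qualify.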
